A study of Rattus norvegicus with 2 samples.

Results

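The CCAAT/enhancer-binding proteins (C/EBP) were examined as a transcription factor family in lumbar spinal cord (SC) of rats with chronic constriction injury (CCI). The family was defined by name as the 6 genes Cebpa, Cebpb, Cebpd, Cebpe, Cebpg and Ddit3, of which Ddit3 encodes CHOP. Values were found for 5 of these 6 genes, out of 18166 genes in all, and each of the 5 was read by 1 probe set that carried no other gene name. Cebpd had no entry among the probe set names used here and was not analysed. In the CCI group, the left sciatic nerve of adult male Sprague-Dawley rats was loosely tied with 4 ligatures, and in the Sham group the nerve was exposed and left free. SC segments L4-L6 were taken on day 10 after surgery. The RNA of 3 rats was mixed into 1 sample per group and hybridised to 1 Affymetrix Rat Gene 2.0 ST array, which reads each transcript with a set of short probes. The sources used here do not say that the injured side of the cord was taken apart from the other side.

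C/EBP proteins bind DNA as dimers through a basic region and a leucine zipper, and they pair with each other and with other proteins of this bZIP class. C/EBPα directs the formation of granulocytes, fat and liver cells, C/EBPβ and C/EBPδ are induced by cytokines and switch on acute phase and inflammatory genes, and C/EBPε acts late in granulocyte maturation. C/EBPγ and CHOP lack a strong activation domain of their own and act largely through the partners they bind. In the nervous system, C/EBPβ has been studied mostly in activated microglia and astrocytes, and CHOP in neurons and oligodendrocytes under stress of the endoplasmic reticulum. The study placed C/EBPβ upstream of Clec7a, the receptor for fungal β-glucans.

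Values are log2 expression after robust multi-array averaging (RMA), and a difference is CCI minus Sham, so that a positive value means higher expression in CCI. Since each group had a single array, the differences carry no replicate error and none was tested. The fold threshold of the study, 1.5, was used without its P value as a description. As a gauge of low signal, the 95th percentile of 1344 genes for olfactory or vomeronasal receptors, which SC is not known to use, was taken as a background level, at 4.36 in CCI and 4.44 in Sham. Levels of different genes come from different probes, so that which of 2 genes was the more abundant cannot be read from them.

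Among the 5 measured genes, Cebpa was higher in CCI by 1.57-fold and was the only one past 1.5-fold, whereas Cebpb, Cebpg and Ddit3 were at nearly the same level in CCI and Sham. Cebpe lay between, close to the background level. The count of 1 of 5 stands beside 298 of all 18166 genes, or 1.64%, that were higher by more than 1.5-fold, and none of the 5 was lower by that much, against 1.14% of all genes. All 5 differences were above 0, as were 47.6% of all differences, and their median was 0.06, against -0.01 over all genes. At a 2-fold threshold none of the 5 was higher or lower, against 0.242% and 0.0716% of all genes. The sign of Cebpb did not hold under other scalings of the 2 arrays, as given below. The SD of the differences over all genes was 0.26, which describes the spread between genes and not an error of any gene.

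**Figure D1:**
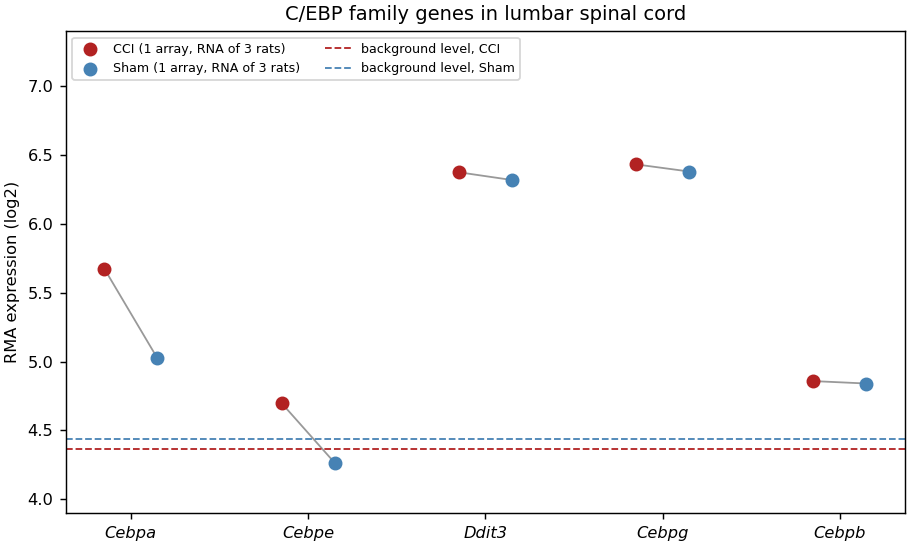
RMA expression on a log2 scale (vertical axis) of the 5 measured C/EBP family genes, with the CCI array as red points left of the Sham array as blue points and the background level of each array as a dashed line. Cebpa was at 5.68 in CCI and 5.02 in Sham, Cebpe crossed the background level, and Ddit3, Cebpg and Cebpb differed by 0.06 or less.

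Cebpa, which encodes C/EBPα, was at 5.68 in CCI and 5.02 in Sham, a difference of 0.65. Both values lay above the background level, by 1.31 in CCI and 0.59 in Sham. The difference exceeded the 1.5-fold threshold by 0.07 on the log2 scale. It ranked behind 214 of the 18166 genes and lay at the 97.8th percentile of the 500 genes nearest in mean level, of which 2.8% were higher by more than 1.5-fold. The difference was 0.65 after removal of the intensity trend and 0.61 after quantile normalization, past 1.5-fold in each case. Cebpa thus had the highest such percentile of the measured family genes, followed by Cebpe at 93.0.

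**Figure D2:**
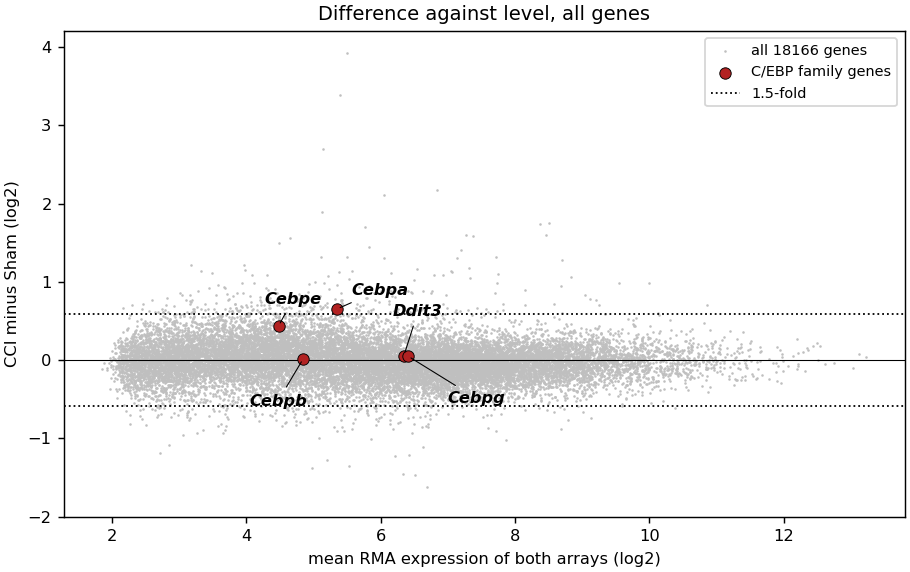
Difference between CCI and Sham on the log2 scale (vertical axis) against the mean RMA expression of both arrays (horizontal axis) for all 18166 genes in grey, with the C/EBP family genes in red and dotted lines at 1.5-fold. Cebpa lies just above the upper line and Cebpe below it, while Cebpb, Cebpg and Ddit3 lie near 0.

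The promoter of Cebpa is shown because C/EBP proteins are known in mice to act on the promoter of Cebpa itself. The 250 bases before the start are from the RefSeq table of assembly GRCr8, plus strand, at chr1:96896334-96896583, with a C/EBP-like stretch in capitals that begins 194 bases before the start.
Cebpa: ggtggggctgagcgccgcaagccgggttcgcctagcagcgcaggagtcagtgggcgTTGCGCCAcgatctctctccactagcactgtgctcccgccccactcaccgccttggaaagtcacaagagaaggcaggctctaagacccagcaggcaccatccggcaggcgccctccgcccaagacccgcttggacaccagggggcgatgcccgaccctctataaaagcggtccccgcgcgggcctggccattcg
The capitals match TTGCGCNA, a pattern that was added after the sequences had been seen and that was found on either strand in 0.744% of the 33469 promoters of the table. The bases from 250 before to 50 after the start were searched here and below. A match is a description of the letters and not a binding site.

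Several myeloid genes that C/EBPα is known to act on or with were also higher in CCI. Spi1, which encodes the myeloid factor PU.1, was at 6.59 in CCI and 5.93 in Sham, a 1.58-fold difference. Csf1r, the receptor for the microglial growth factor CSF-1, was at 9.60 in CCI and 8.82 in Sham (1.71-fold). The integrin Itgam (1.86-fold), the oxidase subunit Cybb (1.82-fold) and the lysozyme Lyz2 (1.52-fold) were also past the threshold. Csf3r, the receptor for the granulocyte growth factor G-CSF, was at 5.23 in CCI and 4.72 in Sham, a 1.43-fold difference that did not reach it. In this list of granulocyte and monocyte targets, 18 of 19 genes were measured, of which 6 were higher by more than 1.5-fold, against 1.64% of all genes, and none was lower by that much, against 1.14%. The list had a median of 0.36. It was drawn up with earlier results of these data known, so that its count is a description and not independent evidence. The members past the threshold include Ngp, a neutrophil granule gene, which at 3.66 in CCI and 3.00 in Sham was at or below the background level in each array.

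In tissue RNA, more cells of a type and more RNA per cell cannot be told apart, and Cebpa is known to be expressed in microglia. Of 17 listed microglia markers, 15 were measured and all 15 were higher in CCI, with 10 past 1.5-fold, against 1.64% of all genes. The median of the list was 0.77. Csf1r and Itgam are in this list and in the list of granulocyte and monocyte targets, so that the 2 lists are not separate evidence. The summed linear level of the 15 microglia markers was 6299 in CCI and 3433 in Sham. The difference of Cebpa, 0.65, was smaller than that of 10 of the 15 markers and larger than that of 5. For Aif1, the gene of Iba-1, the values were 7.91 in CCI and 6.50 in Sham, and P2ry12, a marker of resting microglia, at 8.98 in CCI and 8.52 in Sham. The part of these markers in the difference of Cebpa was not tested.

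**Figure D3:**
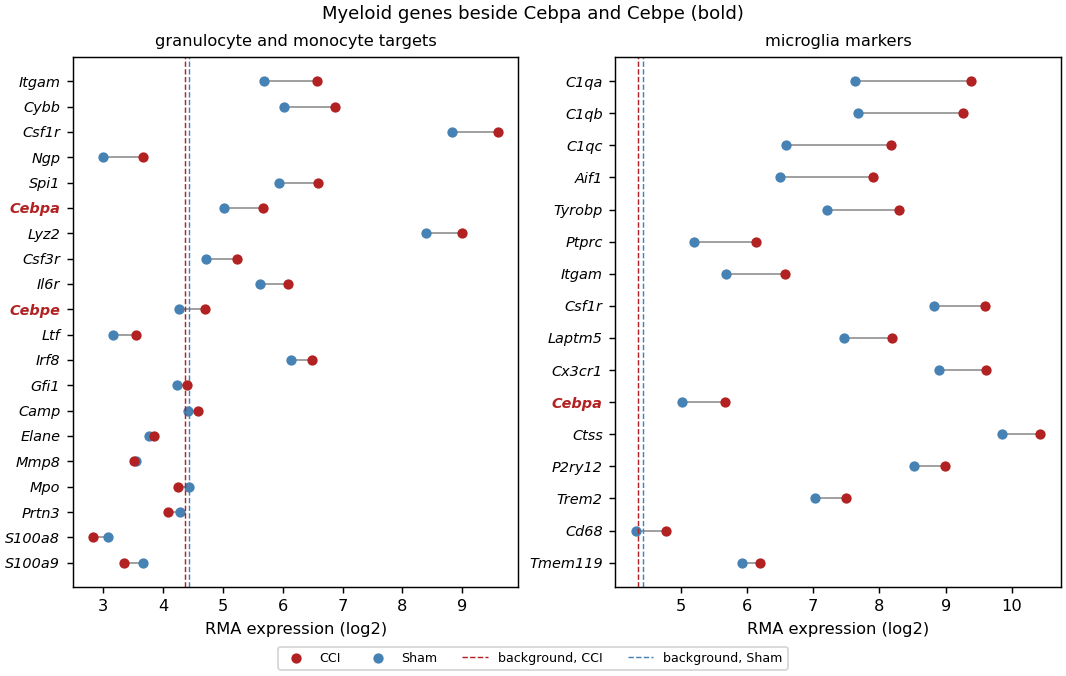
RMA expression on a log2 scale (horizontal axis) in CCI (red) and Sham (blue) for granulocyte and monocyte targets with Cebpa and Cebpe (left) and for microglia markers with Cebpa (right), ordered by difference, with dashed background levels. All 15 microglia markers are higher in CCI, and 8 of the 18 granulocyte and monocyte targets are at or below the background level in both arrays.

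Cebpe, which encodes the granulocyte factor C/EBPε, was at 4.70 in CCI and 4.26 in Sham, a difference of 0.43. The CCI value lay 0.33 above the background level and the Sham value 0.17 below it. The fold is therefore given as at least 1.20, a bound that ignores error in the CCI value and does not establish a difference. The measured difference lay at the 93.0th percentile of the 500 genes nearest in mean level. It was 0.38 after removal of the intensity trend and 0.37 after quantile normalization.

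The granule genes that C/EBPε is known to switch on in maturing neutrophils were mostly below the background level. Ltf, which encodes lactoferrin, was at 3.55 in CCI and 3.17 in Sham, and the collagenase gene Mmp8 was at 3.51 in CCI and 3.55 in Sham. Camp, an antimicrobial peptide gene, was at 4.58 in CCI and 4.42 in Sham, the CCI value alone being above the background level. The neutrophil genes S100a8 (2.83 in CCI and 3.09 in Sham) and S100a9 (3.34 in CCI and 3.66 in Sham) did not reach the background level on either array. Of the 10 neutrophil and monocyte markers, 7 did not exceed the background level on either array. The median of the 10 was 0.12. Of the 10, 2 were higher by more than 1.5-fold, Ngp and Plac8, against 1.64% of all genes, with Plac8 at 7.93 in CCI and 5.76 in Sham. The summed linear level of the 10 was 392 in CCI and 191 in Sham, most of the gap being Plac8, since the other 9 summed to 149 in CCI and 137 in Sham. Of the 10 markers, 7 are also in the list of granulocyte and monocyte targets. In this and the preceding paragraphs, Aif1, P2ry12, Ngp, Plac8 and the granule genes were named after their values were seen.

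For Cebpb, the gene of C/EBPβ, the value was 4.86 in CCI and 4.84 in Sham, a difference of 0.02 or 1.01-fold. These values were above the background level by 0.49 in CCI and 0.40 in Sham. A larger difference was found for 8057 of the 18166 genes, which places Cebpb near the middle of all genes, and it was above that of 47.2% of the 500 genes of like level. Its sign was not stable, at -0.02 after removal of the intensity trend, -0.04 after quantile normalization and 0.03 after subtraction of the median difference. No direction is therefore given for Cebpb mRNA in these 2 arrays. With a signal this close to the background level, a difference could also be understated.

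Clec7a, by contrast, was at 6.49 in CCI and 3.79 in Sham, where it was below the background level, and was at least 4.16-fold higher in CCI. The study chose Clec7a partly from these arrays, so that its difference is not independent evidence. The study linked the pair by reporter and binding assays on the Clec7a promoter, by C/EBPβ knockdown in rats and BV2 cells with Clec7a added back in rats, and by an mRNA correlation in RNA-seq. It reported the rise of C/EBPβ in CCI as protein, which these arrays do not measure. The promoters of Cebpb and Clec7a are shown because of the assays on the Clec7a promoter. Both are the 250 bases before the start in GRCr8, for Cebpb at chr3:176816755-176817004 on the plus strand and for Clec7a at chr4:164599828-164600077 on the minus strand, with capitals for the loose C/EBP pattern TTNNGNAA on either strand.
Cebpb: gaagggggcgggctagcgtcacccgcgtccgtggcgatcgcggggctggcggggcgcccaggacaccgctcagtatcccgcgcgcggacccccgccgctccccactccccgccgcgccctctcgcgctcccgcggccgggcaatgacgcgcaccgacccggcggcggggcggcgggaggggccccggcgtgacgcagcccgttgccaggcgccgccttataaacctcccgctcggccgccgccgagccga
Clec7a: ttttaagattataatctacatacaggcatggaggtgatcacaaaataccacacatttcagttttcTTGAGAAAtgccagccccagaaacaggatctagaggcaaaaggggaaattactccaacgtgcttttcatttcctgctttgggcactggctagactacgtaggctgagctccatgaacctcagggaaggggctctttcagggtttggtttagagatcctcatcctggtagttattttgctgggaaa
In Clec7a this pattern was found once, beginning 185 bases before the start, and in Cebpb none of the patterns searched was found. The pattern is common, with a match in 41.3% of all promoters. The window is shorter than the promoter fragments that the study tested, and sites further upstream are not covered by it. By the numbering of the study, the sites that it mutated lie further upstream, so that the marked stretch is not one of them.

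Signals known to induce Cebpb and Cebpd were measured next. Of 23 listed genes of the IL-6, oncostatin M, IL-1, TNF, Toll-like receptor and glucocorticoid pathways, 20 were measured and none was past 1.5-fold in either direction, against 2.79% of all genes, so that a count of 0 is near that share. Their median was 0.06, with 12 higher and 8 lower. Il6 itself was at 4.42 in CCI and 4.14 in Sham, the CCI value just above the background level and the Sham value below it, so that no fold is given. The adaptor Myd88 (1.40-fold higher), the IL-6 receptor Il6r (1.38-fold higher) and the endotoxin receptor Tlr4 (1.24-fold higher) stood at the upper end. The oncostatin M receptor Osmr was at 5.33 in CCI and 5.84 in Sham, 1.43-fold lower in CCI. The shared receptor subunit Il6st (1.09-fold lower), the transcription factor Stat3 (1.04-fold higher) and the glucocorticoid receptor gene Nr3c1 (1.12-fold higher) were close to Sham. Il6r and Tlr4 are also expressed by microglia, whose markers were higher as given above. Their part was not tested.

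Genes with known C/EBP sites in inflammation and the acute phase response, listed with Clec7a, were split between a few large differences and many small ones. Of 28 listed genes 27 were measured, of which 7 were higher by more than 1.5-fold, against 1.64% of all genes, and none was lower by that much, against 1.14%. The median of the list was 0.22. The 7 include Clec7a, which the study chose partly from these arrays, and the list was drawn up with earlier results of these data known. The count is therefore a description and not independent evidence. Besides Clec7a, the chemokine Ccl2 was at 7.11 in CCI and 5.0 in Sham (4.31-fold). The complement component C3 was at 9.24 in CCI and 7.50 in Sham (3.32-fold). The protease inhibitors Serpina3n (2.46-fold) and Timp1 (2.27-fold) were also past the threshold. Serpina1 was at 4.57 in CCI and 3.87 in Sham, with a bound of only 1.09-fold. The seventh, Il1rn, at 4.01 in CCI and 3.36 in Sham, did not reach the background level in either. In the other direction, Lcn2, which encodes lipocalin-2, an acute phase gene used as a readout of C/EBPβ and C/EBPδ, was at 4.83 in CCI and 5.13 in Sham, 1.23-fold lower. In all, 10 of the 27 genes did not exceed the background level on either array. The genes of this list have other inducers, C3 and Clec7a are expressed by microglia, and which factor acted on them cannot be read from these arrays.

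C3 is shown beside them because its promoter held the most matches among the genes whose promoters were printed here. It lies at chr9:2201340-2201589 on the minus strand of GRCr8, and the capitals mark TTNNGNAA, beginning 117 and 104 bases before the start. The match at 104 also fits TTGCNNAA, a stricter C/EBP pattern. Among other genes of the list, Serpina3n held the loose pattern beginning 218 and 56 bases before the start. Timp1, also higher past 1.5-fold, held none of the patterns searched.
C3: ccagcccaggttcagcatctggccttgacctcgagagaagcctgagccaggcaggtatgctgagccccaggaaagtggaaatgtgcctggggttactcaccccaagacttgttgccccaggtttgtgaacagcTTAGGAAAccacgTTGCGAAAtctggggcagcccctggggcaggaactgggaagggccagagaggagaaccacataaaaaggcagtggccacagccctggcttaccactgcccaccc
The stricter pattern was found in 11 of the 20 promoters of the inflammatory and acute phase genes (55.0%) and the loose one in 18 (90.0%), against 10.6% and 41.3% of all promoters. The list was drawn up from genes known to be C/EBP targets, and from Clec7a, which the study placed there. These shares therefore describe the list and are not a finding. With 20 promoters for 28 listed genes, not every gene is covered. Among the 238 promoters of genes higher by more than 1.5-fold, the stricter pattern was found in 31 (13%) and the loose one in 104 (43.7%), against 9.93% and 36.2% of the 16050 promoters of all measured genes. The full palindrome TTGCGCAA, which is a case of the stricter pattern, was found in 0.17% of all promoters and in none of these 238. The 33469 promoters of the table belong to 27457 genes, so that genes with several starts count more than once in the shares over all promoters.

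Of the family itself, 5 of 6 genes had a promoter in the table. The loose pattern was found in 2 of the 5, in Cebpe beginning 149 and 148 bases before the start and in Cebpg after the start. Neither TTGCNNAA nor the STAT3 pattern TTCCNGGAA nor the cyclic AMP element TGACGTCA was found in any of the 5.

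Cebpg, which encodes C/EBPγ, a widely expressed partner of C/EBPβ and ATF4, was at 6.43 in CCI and 6.38 in Sham. The difference of 0.05, or 1.04-fold, was exceeded by 6961 of all genes and was itself above that of 70.0% of the 500 genes of like level. It was 0.10 after removal of the intensity trend and 0.07 after quantile normalization. Cebpg and Cebpa are neighbours in the genome, with no protein-coding gene between them in GRCr8. The measured difference of Cebpa was 0.65, and any link between position and difference was not tested.

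Ddit3, which encodes CHOP, a factor induced by ATF4 when protein folding or amino acid supply fails, was at 6.38 in CCI and 6.32 in Sham. The difference was 0.06, or 1.04-fold, and both values lay well above the background level, by 2.01 in CCI and 1.88 in Sham. It exceeded 72.8% of the 500 genes of like level, and was 0.11 after removal of the intensity trend and 0.08 after quantile normalization. Under each scaling it stayed far from 1.5-fold.

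In the integrated stress response, in which kinases that phosphorylate eIF2α raise the translation of ATF4, 24 of 26 listed genes were measured and none was past 1.5-fold, against 2.79% of all genes in either direction. The lowest difference was -0.57 and the highest 0.41, around a median of -0.07, and 9 genes were higher and 15 lower. Atf4 was at 9.45 in CCI and 9.44 in Sham, and its sign turned to -0.01 after quantile normalization. Eif2ak3, which encodes PERK, the kinase of the endoplasmic reticulum, was 1.15-fold lower in CCI. The amino acid sensor Eif2ak4, which encodes GCN2, was at 5.77 in CCI and 6.33 in Sham, 1.48-fold lower, and Mthfd2, a folate enzyme and ATF4 target, was at 6.11 in CCI and 6.64 in Sham (1.45-fold lower). The mean difference over the 2 probe sets of Mthfd2 was smaller, at -0.30. Slc7a11, the cystine transporter (1.33-fold), and the serine synthesis enzyme Phgdh (1.30-fold) were higher in CCI. Trib3, a target of ATF4 and CHOP, was at 3.67 in CCI and 3.36 in Sham, each under the background level of its array, and Atf5, which CHOP and ATF4 also induce, was 1.07-fold higher.

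**Figure D4:**
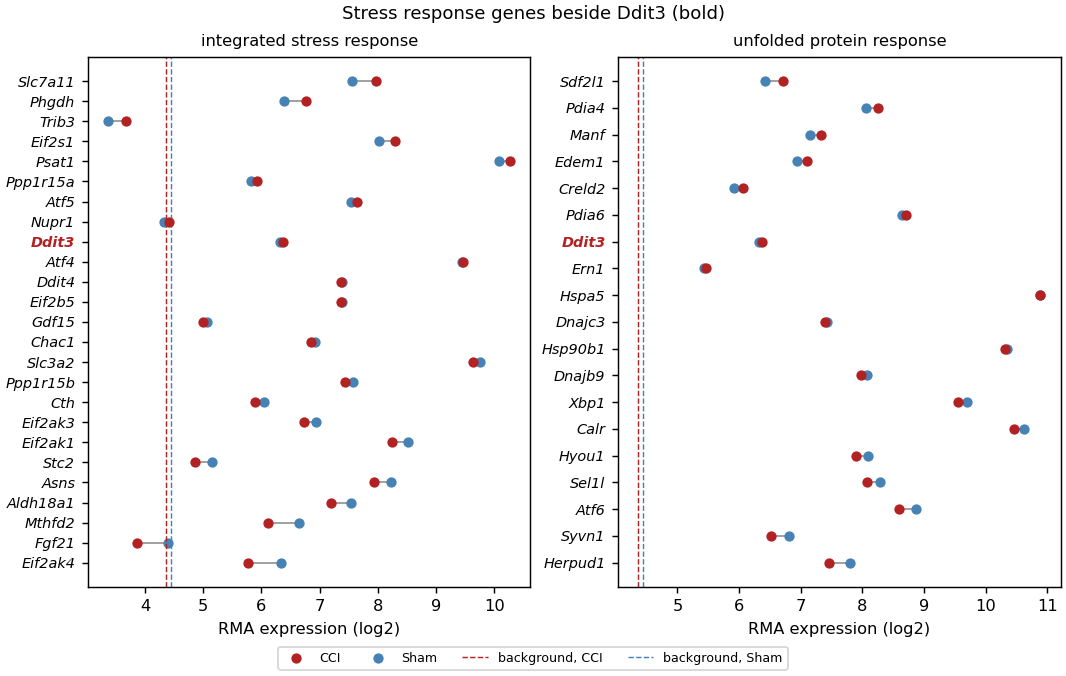
RMA expression on a log2 scale (horizontal axis) in CCI (red) and Sham (blue) for the integrated stress response (left) and the unfolded protein response (right), each with Ddit3 and ordered by difference, with dashed background levels. None of the 24 and 18 genes of these lists is past 1.5-fold, against 2.79% of all genes. Ddit3, Atf4 and Hspa5 differ by 0.06 or less.

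The unfolded protein response list, which follows the IRE1 and ATF6 arms, held 18 genes, all measured and none past 1.5-fold, with a median of -0.04. The chaperone Hspa5, which encodes BiP, was at 10.89 in both CCI and Sham. Herpud1, of the degradation pathway, was 1.26-fold lower in CCI, its ligase Syvn1 1.22-fold lower and the sensor Atf6 1.21-fold lower, whereas the folding factor Sdf2l1 was 1.23-fold higher. Of the list on CHOP and cell death, 8 of 11 genes were measured and none was past 1.5-fold, with a median of -0.07. Over all genes 2.79% were past 1.5-fold in either direction, so that a count of 0 in each list is near that share. The survival gene Bcl2l1 was 1.29-fold lower in CCI, the oxidase Ero1a, a CHOP target, 1.07-fold lower, and the death gene Pmaip1 1.10-fold higher. Bcl2l11, which encodes BIM and is a known CHOP target, was at 4.31 in CCI and 4.48 in Sham, with a bound of 1.09-fold lower.

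The promoters of Ddit3 and of Chac1, a glutathione-degrading enzyme downstream of ATF4, are shown for the composite C/EBP and ATF4 element TGATGNAA, in capitals where either strand holds it. They are the 250 bases before the start on the plus strand of GRCr8, at chr7:65001445-65001694 and chr3:126795881-126796130.
Ddit3: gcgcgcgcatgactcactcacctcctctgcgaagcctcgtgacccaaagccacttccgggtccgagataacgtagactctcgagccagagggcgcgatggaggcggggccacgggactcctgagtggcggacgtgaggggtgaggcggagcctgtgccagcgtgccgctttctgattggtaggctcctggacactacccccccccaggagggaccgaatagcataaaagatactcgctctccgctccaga
Chac1: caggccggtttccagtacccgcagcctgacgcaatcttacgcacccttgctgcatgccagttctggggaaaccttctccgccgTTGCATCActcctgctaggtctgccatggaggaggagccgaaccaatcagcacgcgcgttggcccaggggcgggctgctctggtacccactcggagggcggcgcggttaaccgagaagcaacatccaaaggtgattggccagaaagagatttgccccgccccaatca
In Chac1 the element begins 167 bases before the start. It was not found in the Ddit3 window, which says nothing of the bases beyond it. The element was present in 3.98% of all promoters and in 5 of 27 promoters of the integrated stress response list (18.5%), a list that holds known ATF4 targets. Chac1 was at 6.85 in CCI and 6.92 in Sham, and it was named for its sequence after its value was seen.

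Other bZIP proteins that pair or compete with C/EBP were measured for 20 of 22 listed genes. Atf3, a stress and axotomy gene whose product can pair with CHOP, was at 6.49 in CCI and 5.77 in Sham, 1.64-fold higher, and was the only one past 1.5-fold. None was lower by that much. Of all genes, 1.64% passed this threshold upward and 1.14% downward. A count of 1 of 20 is too small to be set apart from 1.64%, and a count of 0 is near 1.14%. The list had a median of 0.08. Batf2 (1.39-fold), Fosb (1.27-fold) and Nfil3 (1.27-fold), a repressor that binds C/EBP-like sites, were higher by less, and Jun was 1.09-fold higher. Fos was at 6.39 in CCI and 6.56 in Sham, 1.13-fold lower.

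**Figure D5:**
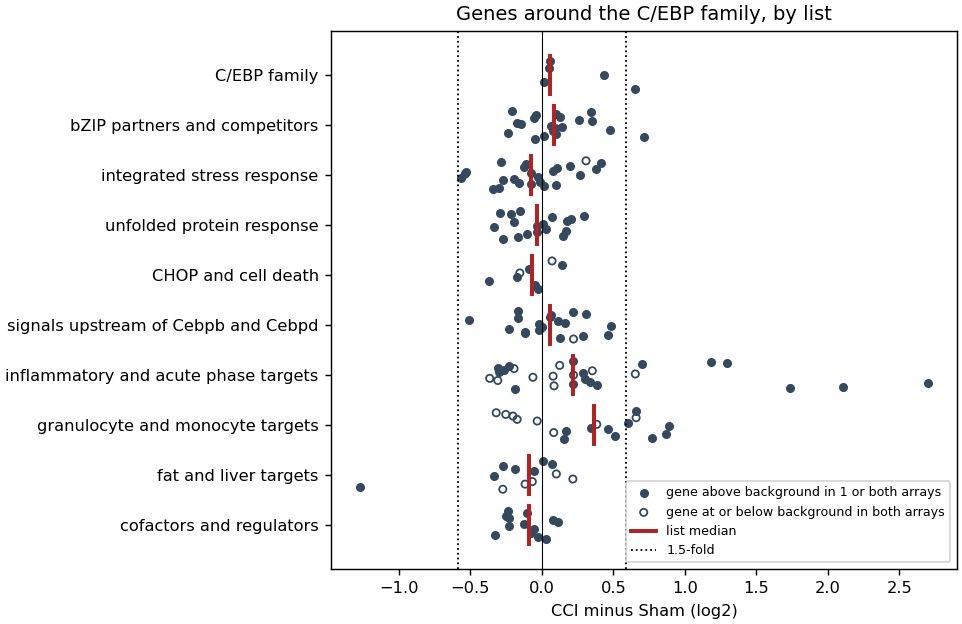
Difference between CCI and Sham on the log2 scale (horizontal axis) for each measured gene of the family and of 9 lists of related genes (rows), with open points for genes at or below the background level in both arrays, red bars for list medians and dotted lines at 1.5-fold. Genes past 1.5-fold in the higher direction lie mostly in the inflammatory and the granulocyte and monocyte lists, with 7 and 6 genes, against 1.64% of all genes.

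Of 18 listed cofactors and regulators of C/EBP proteins, 14 were measured. As deposited, 11 were lower in CCI and 3 higher, where 47.6% of all genes were higher. None was past 1.5-fold, against 2.79% of all genes in either direction, so that a count of 0 is near that share. The median of the list was -0.09, against -0.01 over all genes and -0.04 over genes at or above the median level. The acetyltransferase gene Crebbp was 1.25-fold lower, the chromatin remodeller Smarca4 1.19-fold lower and the ubiquitin ligase Mdm2 1.17-fold lower. After removal of the intensity trend these differences were smaller, at -0.28, -0.21 and -0.17 on the log2 scale. Trib1 and Trib2, whose products drive the degradation of C/EBPα, were 1.07-fold and 1.18-fold lower in CCI. Runx1, a partner of C/EBPα in myeloid cells, was 1.05-fold higher.

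Fat and liver genes, in which C/EBPα is a main factor outside the nervous system, showed a median of -0.09 over 12 measured of 14 listed genes. Only Alb, the albumin gene, was past 1.5-fold, at 4.56 in CCI and 5.84 in Sham, 2.42-fold lower. Over all genes 1.14% were lower by more than 1.5-fold, and a count of 1 of 12 is too small to be set apart from that share. The lipase Lpl (1.26-fold), the desaturase Scd (1.21-fold) and the coactivator Ppargc1a (1.14-fold) were also lower, and 5 of the 12 were at or below the background level in both arrays. No gene of this list was higher by more than 1.5-fold, against 1.64% of all genes, so that this count too is near the share over all genes.

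The genes nearest to each family gene by the distance between their 2 log2 values are a coarse description, since 2 arrays hold only 1 difference. For Cebpa these were Hcls1, Psmb9 and Ypel1, at distances of 0.04 to 0.08, and 7 genes lay within 0.1. For Cebpe they were Ocm, Anxa8 and Ttc22, for Cebpb Hspb2, Tp73 and Mir503, for Cebpg Usp36, Tex10 and Bcl9l, and for Ddit3 Tgfb3, Usp21 and Rab34. Within 0.1 of Cebpb, Cebpg and Ddit3 lay 117, 142 and 131 genes, so that their nearest genes are not distinctive.

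Markers of the other cell types of SC gave the setting of these values. Neuron markers had lower values in CCI in 10 of 10 genes with a median of -0.26, where 47.6% of all genes were higher by any amount. Of the 10, 2 were lower by more than 1.5-fold, against 1.14% of all genes. The summed linear level of the neuron markers was 13546 in CCI and 15223 in Sham. Astrocyte markers had a median of 0.08 over 7 genes and oligodendrocyte markers 0.04 over 7 genes. Endothelium markers had a median of -0.28 over 5 genes and border macrophage markers -0.25 over 6 genes. None of them was past 1.5-fold, against 2.79% of all genes in either direction. For meninges and fibroblasts the median was 0.04, for Schwann cells and ganglion neurons 0.02, for lymphocytes 0.13 and for erythrocytes -0.20. In the meninges list 1 of 6 genes, Col1a1 (1.52-fold), was higher by more than 1.5-fold, against 1.64% of all genes, while Col1a2 differed by -0.003. The part of any of them in the differences of the family was not tested.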

How the data were processed

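Lumbar SC RNA of 3 rats per group was mixed by the authors and run on 1 array per group. The deposited values are log2 expression that the authors obtained by RMA (R 3.1.1 with Bioconductor, per the methods), which subtracts background, equalises the arrays and summarises the probes of a set, so that folds of weak genes can be understated. The genome build behind the array annotation is not given in the sources used here. Each array held 28879 probe sets. Of these, 18511 carried 1 gene name, 575 several and 9793 none. Symbols were updated by Entrez ID through RefSeq (GRCr8) for 18394, and the platform symbol was kept for 117. For the 291 of 18166 genes with more than 1 probe set, the one with the highest mean was kept.

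Differences were CCI minus Sham, with no test, since 1 array per group gives no error, and precision is limited by the number of arrays. Where the dimmer value was at or below the background level, the fold is a bound from that level. Groups came from the sample titles. The family and the 9 pathway and 11 marker lists (259 symbols, 230 measured) were chosen with earlier results of these data known. Named genes were the family, Clec7a, fixed partners and inducers, the 4 largest differences of each pathway list above the background level in at least 1 array, and list members past 1.5-fold above it. Alternatives were a 2-fold threshold, a floor on level, a lowess trend (span 0.3), quantile normalization, median centring, the mean over probe sets, every probe set and a shorter promoter window. A comparison of protein sequences was not run. The calculations were tested on simulated data. Python 3.11.15, pandas 2.3.3 and statsmodels 0.14.6 were used.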

Additional observations from a re-analysis of the deposited data

How the results depend on the processing

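No paired analysis was possible because each group had 1 array. With 1 array per group, a value was counted as moved when it shifted by 0.1 or more on the log2 scale, and a count when it shifted by more than 1.5 times. For Cebpa, Cebpb, Cebpe, Cebpg and Ddit3, no difference moved under the lowess trend, quantile normalization, median centring, the mean over probe sets or every probe set, each gene having 1 probe set, although the sign of Cebpb turned as given in the report.

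With a 2-fold threshold, 44 genes were higher and 13 lower, and the family, the bZIP list and the granulocyte and monocyte list had 0 genes higher. With the floor at the median level of 5.83, 91 genes were higher and 79 lower. With that floor the family kept 2 genes and 0 were past the threshold, since Cebpa lay below the floor. The inflammatory list then had 4 genes higher and a median of 1.18, the granulocyte and monocyte list a median of 0.66, and the fat and liver list 0 genes lower and a median of -0.23, over 7, 7 and 2 genes. After the lowess trend and after quantile normalization, 1 gene of the integrated stress response list was lower past 1.5-fold in each case. It was neither Eif2ak4, at -0.53 and -0.56 under these settings, nor Mthfd2, at -0.48 and -0.52. The other gene of this list near the threshold as deposited was Fgf21, at -0.54. Its values, 3.86 in CCI and 4.39 in Sham, were below the background level in each array. With the 250 bases before the start alone, 1 family promoter held TTNNGNAA, and 1 promoter of the upstream signals held TTGCNNAA, against 2 with the longer window. Of the other named genes, Mthfd2 alone moved, and under the mean over its 2 probe sets alone, to -0.30. Signal near the background level limits Cebpe most, with the Sham value below it. Cebpb follows, at 0.49 above that level in CCI and 0.40 in Sham.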
